A study of Homo sapiens with 12 samples.

Results

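The quantity described here is how differently 2 human cell lines responded to the same altered DICER. For each miRNA it is the log2 fold change of AA over WT in HEK293T minus the log2 fold change of AA over WT in HCT116. A difference of −1 means that the ratio of AA to WT was 2-fold smaller in HEK293T than in HCT116, and a positive difference means that it was larger in HEK293T. The members were all human miRNA names listed in the deposited count tables of both lines, which gave 1494 of the 1971 names listed for either line. Of these, 514 passed a filter on low counts in both lines and were tested, 87 passed in HEK293T only, 199 in HCT116 only and 694 in neither, 5 of which had no read. The tested names held 98.3% to 99.6% of the reads of the shared names.

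The comparison used 4 groups with 2 libraries each, 8 of the 12 libraries of the series: HEK293T rescued with DICER AA, HEK293T rescued with DICER WT, HCT116 rescued with DICER AA and HCT116 rescued with DICER WT. HEK293T is an embryonic kidney line and HCT116 a colorectal carcinoma line. WT is the unaltered protein, and AA is a form whose change the labels do not spell out. The labels call every library a rescue, so the WT groups also carry supplied DICER, but they do not say how the cells' own DICER was removed, how much of each form the cells held, or whether a line was 1 clone. An effect of the AA change and an effect of a different amount of DICER therefore cannot be told apart. Small RNA was sequenced by AQ-seq, a protocol made to lessen ligation bias, from 100 µg of total RNA.

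DICER is the RNase III enzyme that trims hairpin precursors in the cytoplasm into short duplexes. The 5p strand comes from the 5′ side of the hairpin and the 3p strand from the 3′ side, and usually 1 of them is kept as the guide by an Argonaute protein. Bases 2 to 8 of the guide, the seed, pair with target mRNAs, so miRNAs with the same seed share most of their targets. Most precursors are first released from a longer transcript by DROSHA, and a few, such as miR-484, reach DICER without it.

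The mature strands below are the ones on which the results turn, with the seed in capitals, from RefSeq on GRCh38.p14. The first 5 come from 1 gene cluster on chromosome 19, and the let-7 pair and the miR-30 pair each share a seed.
let-7e-5p: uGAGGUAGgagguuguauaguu
miR-99b-5p: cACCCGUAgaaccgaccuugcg
miR-99b-3p: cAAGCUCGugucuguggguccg
miR-125a-5p: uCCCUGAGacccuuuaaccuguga
miR-125a-3p: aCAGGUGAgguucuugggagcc
let-7g-5p: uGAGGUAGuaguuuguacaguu
miR-484: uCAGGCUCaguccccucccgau
miR-27b-3p: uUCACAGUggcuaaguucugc
miR-25-5p: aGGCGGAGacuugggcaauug
miR-18b-5p: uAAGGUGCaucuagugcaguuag
miR-182-5p: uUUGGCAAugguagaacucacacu
miR-30a-3p: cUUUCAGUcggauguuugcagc
miR-30e-3p: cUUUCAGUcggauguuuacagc
miR-625-3p: gACUAUAGaacuuucccccuca
Of the 1494 shared names 1313 matched a mature sequence in RefSeq, among them 20 of the 24 names that passed the test.

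The 8 libraries held 1440770 to 4498886 miRNA reads, with 2897843 and 1440770 in HEK293T AA, 2791656 and 3552613 in HEK293T WT, 3157018 and 3551705 in HCT116 AA and 4498886 and 4056722 in HCT116 WT. Levels are given as CPM, that is, reads scaled to the library total. A name without a read could still have had up to 3 reads, which is 0.668 to 2.08 CPM before scaling. The 9 epithelial markers listed for HCT116, the miR-200 family, miR-192, miR-194, miR-215 and miR-31, summed to 7395 to 9739 CPM in HEK293T AA, 6542 to 6809 in HEK293T WT, 59810 to 61980 in HCT116 AA and 66080 to 67180 in HCT116 WT. Most of the HCT116 sum was miR-31-5p, at 53858 to 61093 CPM there, and 3 of the 9 were higher in HEK293T in every library, namely miR-192-5p, miR-194-5p and miR-215-5p. None of the 9 was at 0 in a whole group. Of the 17 listed markers of other cell types, miR-144-5p was at 0 in both HEK293T AA libraries, and miR-486-5p stood at 2887 and 19410 CPM in HEK293T AA, 5769 and 6450 in HEK293T WT, 65.5 and 73.1 in HCT116 AA and 81.2 and 20.7 in HCT116 WT. The part of miR-486-5p in the results was not tested. In bulk RNA, fewer cells making a miRNA and less of it per cell cannot be told apart.

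The effect of AA differed between the lines for 24 of 514 miRNAs (4.67%) by edgeR's quasi-likelihood test of the interaction with Benjamini-Hochberg adjustment at 0.05. The difference was lower in HEK293T for 18 (3.5%) and higher for 6 (1.17%), and 53 and 48 had an unadjusted p under 0.05. The lower names were let-7e-5p, let-7g-5p, both arms of miR-99b, miR-151a-5p, miR-151b, miR-484, miR-27b-3p, miR-374b-5p, miR-374a-3p, miR-455-3p, miR-615-3p, miR-1277-3p, miR-18b-5p, miR-25-5p, miR-29b-1-5p, miR-7-1-3p and miR-2355-5p. The higher names were miR-182-5p, miR-30a-3p, miR-30e-3p, miR-625-3p, miR-145-5p and miR-3653-3p. Over all 514 names the median difference was −0.01. With library totals in place of TMM scaling that median was −0.42, and the split was 6 higher and 73 lower. With DESeq2 size factors the split was 16 and 22, by DESeq2 itself 23 and 24, and with all 12 libraries in the edgeR fit 28 and 23. Without HEK293T WT replicate 2 it was 16 higher and 42 lower, without HEK293T WT replicate 1 it was 9 and 29, and without HCT116 WT replicate 2 it was 13 and 21.

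Among the 24, the larger of the 2 effects was usually that of HEK293T. By the sign of the fitted fold changes, of the 18 lower differences 11 had AA below WT in both lines and further below in HEK293T, 6 had it below WT in HEK293T and above in HCT116 by a smaller amount, and 1, miR-7-1-3p, had its larger effect in HCT116. Of the 6 higher differences, 3 had AA above WT in both lines and further above in HEK293T, 2 had it above WT in HEK293T and slightly below in HCT116, and 1, miR-3653-3p, had its larger effect in HCT116. For miR-625-3p (0.00), miR-2355-5p (0.01), miR-182-5p (−0.06) and let-7g-5p (−0.07) the HCT116 fold change was near 0 on the log2 scale and its groups overlapped, so that their sign there is not resolved. For miR-3653-3p the HEK293T groups overlapped, so that its sign in HEK293T is not resolved. AA and WT libraries did not overlap in HEK293T for 281 of the 514 names (54.7%), in HCT116 for 289 (56.2%) and in both for 173 (33.7%). These shares are the background for the statements on overlap that follow.

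**Figure D1:**
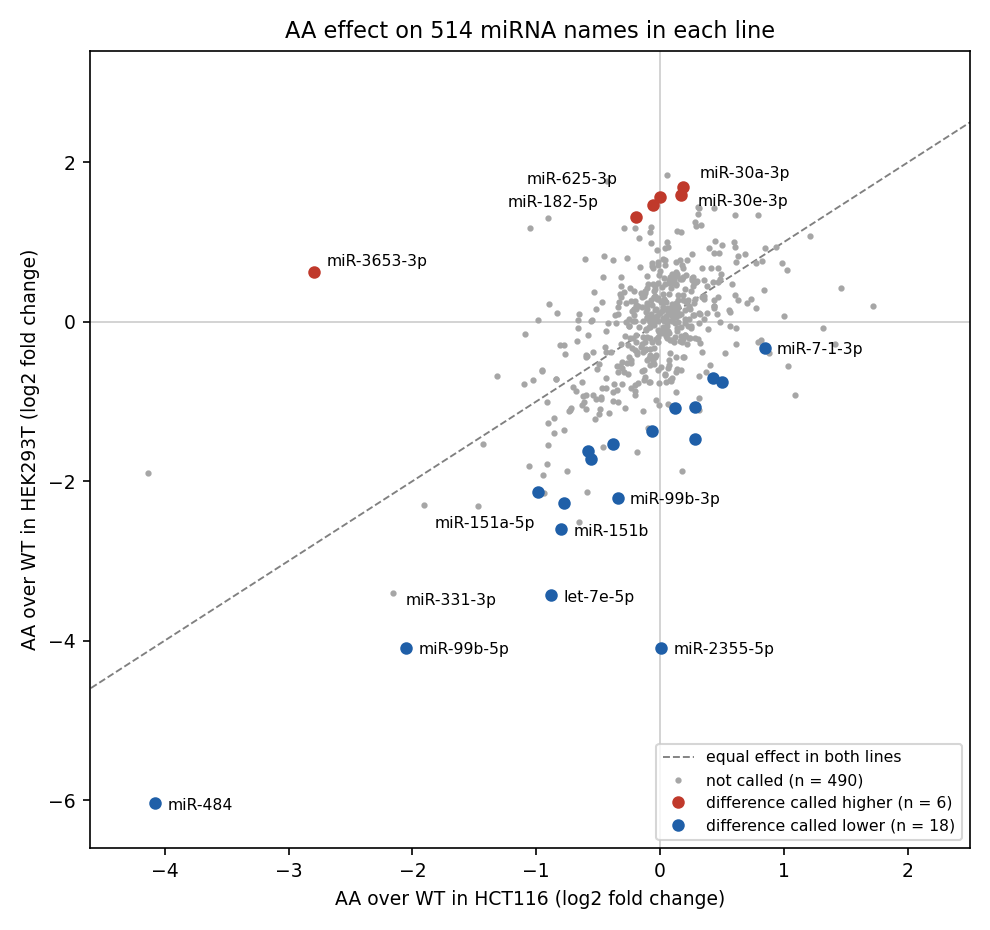
Log2 fold change of AA over WT in HEK293T (vertical axis) against that in HCT116 (horizontal axis) for 514 miRNA names, 1 point each, with the names whose line difference passed the test in red (6 higher) and blue (18 lower) and the line of equal effects dashed. miR-484 has the lowest value in HEK293T (−6.04) and lies at −4.08 in HCT116, and let-7e-5p and miR-99b-5p lie well below the dashed line.

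The strongest group of differences came from 1 cluster of 3 hairpins in an intron of SPACA6 on the plus strand of chromosome 19 (GENCODE v29, GRCh38). Let-7e, a member of the let-7 family that represses growth genes such as RAS and HMGA2, and both arms of miR-99b, whose family is known to target MTOR, had much smaller ratios of AA to WT in HEK293T than in HCT116. The arms of the other hairpin, miR-125a, did not pass. The hairpins are printed with their annotated mature strands in capitals, since neighbours of 1 transcript have different values here. The difference between the hairpins was not tested.
MIR99B, chr19:51692612-51692681: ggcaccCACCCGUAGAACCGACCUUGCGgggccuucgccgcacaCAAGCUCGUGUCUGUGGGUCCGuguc
MIRLET7E, chr19:51692786-51692864: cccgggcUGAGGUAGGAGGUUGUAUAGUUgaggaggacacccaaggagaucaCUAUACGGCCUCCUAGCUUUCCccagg
MIR125A, chr19:51693254-51693339: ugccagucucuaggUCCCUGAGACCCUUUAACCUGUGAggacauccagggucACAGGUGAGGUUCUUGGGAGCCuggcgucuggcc
Let-7e-5p, the largest difference among names with at least 50 CPM in each line, had 26.0 and 20.4 CPM in HEK293T AA against 199 and 315 in HEK293T WT, and 975 and 942 in HCT116 AA against 1809 and 1722 in HCT116 WT. AA lay below WT without overlap in both lines, 10.8-fold below in HEK293T and 1.84-fold below in HCT116. The difference was −2.55 ± 0.34 (SE), a ratio of AA to WT 5.86-fold smaller in HEK293T (edgeR adjusted p = 0.0035). miR-99b-5p had 24.2 and 44.8 CPM in HEK293T AA against 645 and 472 in HEK293T WT, and 594 and 582 in HCT116 AA against 2601 and 2283 in HCT116 WT. Here too the groups did not overlap in either line, and the difference was −2.04 ± 0.37 (edgeR adjusted p = 0.0082). The other strand of the same hairpin, miR-99b-3p, had 9.49 and 14.1 CPM in HEK293T AA against 49.7 and 53.6 in HEK293T WT, and 163 and 178 in HCT116 AA against 224 and 209 in HCT116 WT. Its difference was −1.87 ± 0.30 (edgeR adjusted p = 0.0063). Both strands of the miR-99b hairpin passed with similar differences, and their ratio had a line difference of −0.23 ± 0.39 (edgeR adjusted p = 0.788). miR-125a-5p, a relative of miR-10 and miR-99, had 1321 and 833 CPM in HEK293T AA against 723 and 941 in HEK293T WT, and 1278 and 1256 in HCT116 AA against 1860 and 1800 in HCT116 WT. Its HEK293T groups overlapped, and its difference of 0.91 ± 0.32 did not pass (edgeR adjusted p = 0.141). It was called without HEK293T AA replicate 2 (1.35) and by DESeq2 (1.01), and it was 0.33 without HEK293T AA replicate 1. miR-125a-3p stood at 0.04 ± 0.29. Let-7e-3p had too few reads to be tested.

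The let-7 family as a whole lay on the low side. All 12 tested members, of 19 listed, had a difference below 0 (258 of all 514 did), with a median of −0.60 that was below 0 under each of the 6 scalings, and 2 passed the test. The 9 tested names with the seed GAGGUAG are 5p strands, whose differences ran from −2.55 for let-7e-5p to −0.11 for let-7f-5p, with let-7a-5p, the most abundant, at −0.80 ± 0.30 (edgeR adjusted p = 0.164). Let-7a-5p was called without HEK293T WT replicate 1 (−1.16) and with library totals (−1.20). Let-7g-5p, from an intron of WDR82 on chromosome 3 (52268278 to 52268361), was the other that passed. It had 115 and 131 CPM in HEK293T AA against 249 and 385 in HEK293T WT, and 5144 and 5193 in HCT116 AA against 5051 and 5769 in HCT116 WT. AA was below WT in HEK293T, and in HCT116 the groups overlapped. The difference was −1.31 ± 0.30 (edgeR adjusted p = 0.030), and the call was lost without HCT116 WT replicate 1 (−1.11) and with spike-in scaling (−1.34). Its other strand, let-7g-3p, was at −0.17 ± 0.41. Reads of let-7 members are near-identical, and the sources used here do not give the rule for reads that match several names.

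miR-484 had the lowest ratio of AA to WT of all 514 names in HEK293T and was among the lowest in HCT116, and the effect still differed between the lines. It is cut from a capped transcript that skips DROSHA, and its hairpin lies in an exon of NDE1 on chromosome 16 (15643294 to 15643372). It had 27.9 and 27.5 CPM in HEK293T AA against 2067 and 1592 in HEK293T WT, and 72.0 and 70.2 in HCT116 AA against 1336 and 1066 in HCT116 WT. The AA libraries of each line agreed closely and lay far below their WT libraries, 65.9-fold in HEK293T and 16.9-fold in HCT116. The difference was −1.96 ± 0.30 (edgeR adjusted p = 0.0063). The other 4 tested members of the DROSHA-independent list are miR-320 names, whose sequences are alike enough to share reads. All 5 members were below 0, at −1.96 to −0.59, with a median of −0.95 that was below 0 under each of the 6 scalings, and only miR-484 passed. The most abundant, miR-320a, was at −0.59 ± 0.34 (edgeR adjusted p = 0.355), and was called without HEK293T WT replicate 1 (−0.98) and with library totals (−1.01).

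miR-151a-5p and miR-151b, which are nearly the same sequence and may share reads, moved together. miR-151a-5p had 319 and 400 CPM in HEK293T AA against 1820 and 1647 in HEK293T WT, and 7558 and 8335 in HCT116 AA against 12913 and 14279 in HCT116 WT. The groups were separate in both lines, and HCT116 held more of it with either form. Its difference was −1.50 ± 0.25 (edgeR adjusted p = 0.0063). miR-151b, at 12.6 to 20.8 CPM in HEK293T AA, 104 to 112 in HEK293T WT, 345 to 456 in HCT116 AA and 677 to 719 in HCT116 WT, had a difference of −1.80 ± 0.32 (edgeR adjusted p = 0.0082). The opposite strand, miR-151a-3p, stood at −0.67 ± 0.26 and did not pass (edgeR adjusted p = 0.17), but did without HEK293T WT replicate 1 or 2 and with library totals.

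miR-27b-3p, known for repressing PPARG and other lipid genes, comes from an intron of C9orf3 on chromosome 9 (95085445 to 95085541). It had 901 and 1098 CPM in HEK293T AA against 3416 and 3180 in HEK293T WT, and 5278 and 4808 in HCT116 AA against 7721 and 7121 in HCT116 WT. AA was below WT without overlap in both lines, and the difference was −1.17 ± 0.24 (edgeR adjusted p = 0.018), not called with spike-in scaling (−1.24). Its paralog miR-27a-3p, which shares the seed UCACAGU and comes from another cluster, was at 0.23 ± 0.25. The names made from hairpins within 10000 bases of miR-27b were at −0.49 for miR-23b-5p, −0.27 for miR-23b-3p, −0.11 for miR-24-3p and 0.12 for miR-24-1-5p, and none passed. Reads of miR-24-3p may also come from a hairpin elsewhere. In the list of miR-27 with its cluster mates miR-23 and miR-24, 1 of 11 names passed, and the median was −0.27.

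The remaining names with AA below WT in both lines and further below in HEK293T were miR-374b-5p, miR-455-3p and miR-615-3p, from introns of FTX, COL27A1 and the HOXC genes. miR-374b-5p had 998 and 913 CPM in HEK293T AA against 2555 and 2986 in HEK293T WT, and 748 and 751 in HCT116 AA against 978 and 974 in HCT116 WT. Its groups were separate in both lines, and its difference was −1.15 ± 0.24 (edgeR adjusted p = 0.018). miR-455-3p had 43.5 and 48.0 CPM in HEK293T AA against 151 and 129 in HEK293T WT, and 333 and 324 in HCT116 AA against 486 and 499 in HCT116 WT. miR-615-3p had 68.0 and 87.2 CPM in HEK293T AA against 377 and 293 in HEK293T WT, and 147 and 166 in HCT116 AA against 344 and 276 in HCT116 WT. Both were separate in both lines, with differences of −1.04 ± 0.25 for miR-455-3p and −1.15 ± 0.29 for miR-615-3p (edgeR adjusted p = 0.034 and 0.046). All 3 lost their call with spike-in scaling (−1.17, −1.06 and −1.22). Leaving out 1 library also ended calls, namely that of miR-374b-5p without HCT116 WT replicate 1 (−1.05), that of miR-455-3p without HCT116 WT replicate 1 (−0.92), HCT116 AA replicate 1 (−1.09) or 2 (−1.15) or HEK293T AA replicate 2 (−0.95), and that of miR-615-3p without HCT116 WT replicate 2 (−1.04), HCT116 AA replicate 2 (−1.17) or HEK293T AA replicate 1 (−1.17) or 2 (−1.18).

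**Figure D2:**
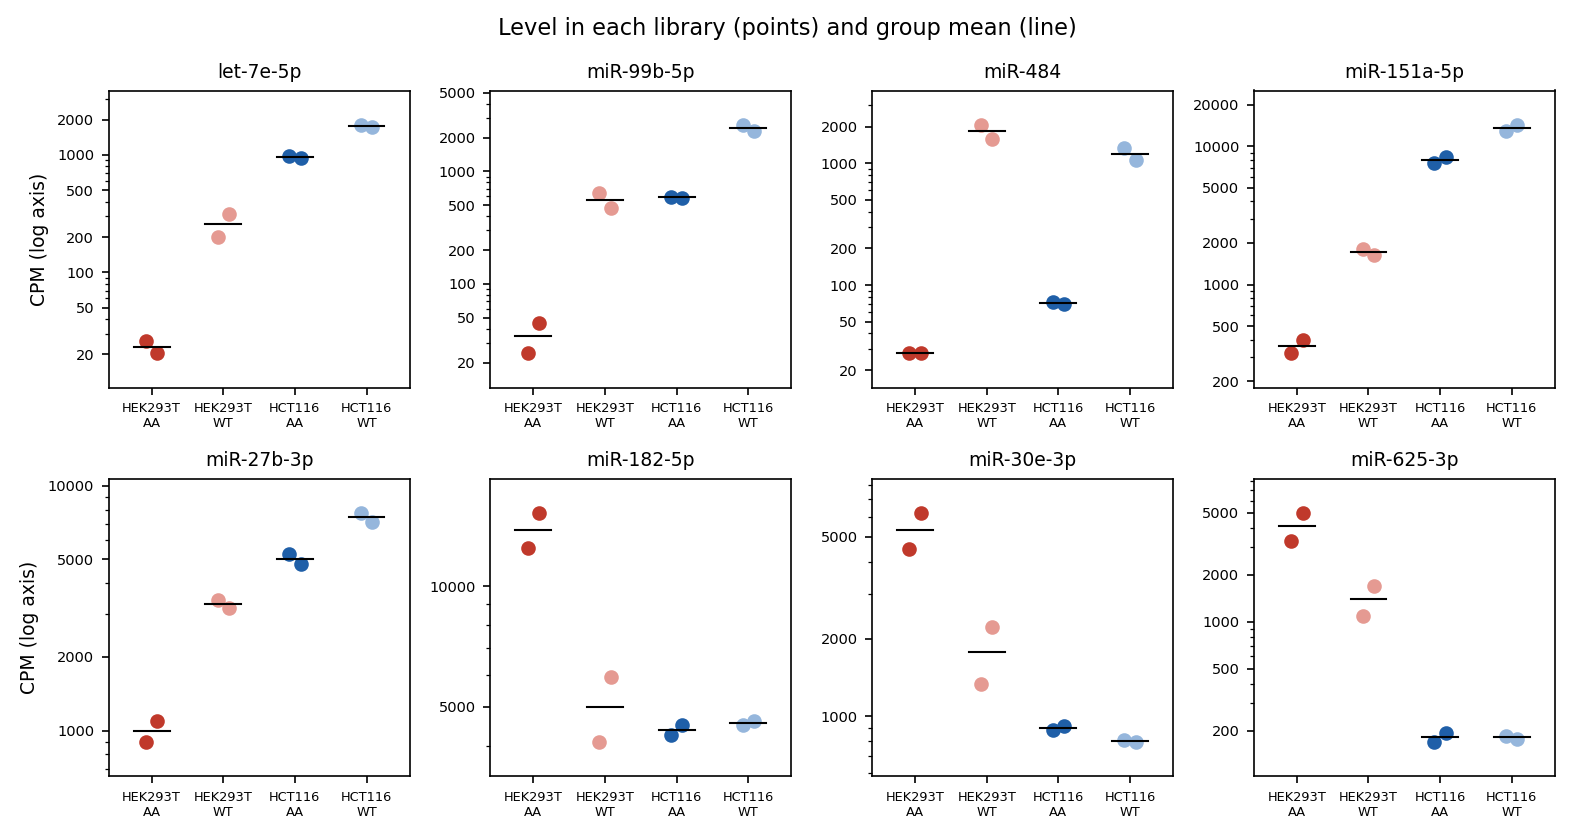
TMM-scaled CPM (log axis) of 8 miRNAs in each library, 2 points per group with the group mean as a line, in HEK293T AA, HEK293T WT, HCT116 AA and HCT116 WT. In the first 5 panels the step from WT to AA is downward in both lines and larger in HEK293T. In the panels of miR-182-5p, miR-30e-3p and miR-625-3p AA lies above WT in HEK293T, while the HCT116 groups lie close together.

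In 7 of the 18 lower differences the fold changes of the lines had opposite signs. miR-25-5p, the less abundant strand of the miR-25 hairpin in an intron of MCM7, had 248 and 313 CPM in HEK293T AA against 417 and 525 in HEK293T WT, and 117 and 105 in HCT116 AA against 83.4 and 73.4 in HCT116 WT. AA was thus below WT in HEK293T and above WT in HCT116, without overlap in either line. The difference was −1.26 ± 0.28 (edgeR adjusted p = 0.025). miR-7-1-3p, the lesser strand of a miR-7 hairpin, had 77.5 and 76.3 CPM in HEK293T AA against 96.8 and 96.6 in HEK293T WT, and 716 and 677 in HCT116 AA against 388 and 388 in HCT116 WT. Here the larger step was upward in HCT116, and the difference was −1.17 ± 0.24 (edgeR adjusted p = 0.015). miR-18b-5p, from the X-linked paralog of the miR-17-92 cluster (MIR18B, chromosome X, 134170041 to 134170111), had 58.5 and 66.0 CPM in HEK293T AA against 149 and 113 in HEK293T WT, and 202 and 203 in HCT116 AA against 196 and 178 in HCT116 WT. The HEK293T groups were well apart and the HCT116 groups close, and the difference was −1.20 ± 0.27 (edgeR adjusted p = 0.025). Its near-identical paralog miR-18a-5p, which shares its seed, was at −0.37 ± 0.24. The names of its own cluster, miR-106a-5p, miR-19b-3p and miR-92a-3p, at 0.11 to 0.52, did not pass. Reads of miR-19b-3p and miR-92a-3p may also come from hairpins outside this cluster, so their values need not be those of the cluster. The calls of miR-7-1-3p (−1.06) and miR-18b-5p (−1.18) were lost without HCT116 WT replicate 1, that of miR-18b-5p also without HEK293T AA replicate 2 (−1.14), and that of miR-7-1-3p with spike-in scaling (−1.20).

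Lower and less abundant in HEK293T were miR-1277-3p, miR-29b-1-5p and miR-2355-5p. miR-1277-3p had 14.1 and 15.7 CPM in HEK293T AA against 38.0 and 43.5 in HEK293T WT, and 72.6 and 75.7 in HCT116 AA against 58.0 and 63.9 in HCT116 WT. AA was below WT in HEK293T and above it in HCT116 without overlap, and the difference was −1.75 ± 0.30 (edgeR adjusted p = 0.0081). miR-29b-1-5p (−1.34 ± 0.34, edgeR adjusted p = 0.044) comes from an exon of LINC-PINT and is the lesser strand of a miR-29 hairpin whose family represses collagen genes. It had 14.7 and 18.9 CPM in HEK293T AA against 26.3 and 41.7 in HEK293T WT, and 2612 and 2642 in HCT116 AA against 2152 and 2173 in HCT116 WT, apart in both lines in opposite directions. The call was lost with spike-in scaling (−1.36) and without HCT116 WT replicate 1 (−1.21) or HEK293T AA replicate 1 (−1.33). miR-29a-3p, made next to it, was at 0.05 ± 0.31. miR-374a-3p (−1.13 ± 0.29, edgeR adjusted p = 0.047), also from FTX, had 202 and 229 CPM in HEK293T AA against 283 and 418 in HEK293T WT, and 118 and 121 in HCT116 AA against 83.4 and 94.7 in HCT116 WT, likewise apart in opposite directions. It lost its call with spike-in scaling (−1.17), without HCT116 WT replicate 1 (−0.94) and without HEK293T AA replicate 2 (−1.06), and with limma-voom (−1.12). miR-2355-5p, from an intron of KLF7, had 1 read in each HEK293T AA library against 27 and 34 in HEK293T WT, and 76 and 104 in HCT116 AA against 113 and 88 in HCT116 WT. The ratio of AA to WT in HEK293T, 0.0537 with an exact 95% counting interval of 0.00636 to 0.203, rests on those 2 reads, and the HCT116 groups overlapped. The fitted difference was −4.10 ± 0.65 (edgeR adjusted p = 0.0063).

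Of the 6 higher differences, the most abundant was miR-182-5p, of the miR-183, miR-96 and miR-182 cluster known from sensory organs and epithelial tumours (MIR182, chromosome 7, 129770383 to 129770492, with no gene on its strand). It had 12447 and 15191 CPM in HEK293T AA against 4092 and 5928 in HEK293T WT, and 4264 and 4513 in HCT116 AA against 4506 and 4621 in HCT116 WT. The HEK293T AA libraries stood well above the other 6, and the HCT116 groups overlapped. The difference was 1.52 ± 0.28, a ratio of AA to WT 2.87-fold larger in HEK293T (edgeR adjusted p = 0.0087). The other strand, miR-182-3p (0.41 ± 0.39), and its neighbours miR-96-5p (0.50 ± 0.27) and miR-96-3p (−0.33 ± 0.41) did not pass. Of the 6 tested names of the cluster 2 were below 0. The lowest, a strand of miR-183, was at −0.60 and did not pass.

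miR-30a-3p and miR-30e-3p, which share the seed UUUCAGU and come from hairpins on chromosomes 6 and 1, were both higher. miR-30a-3p had 2344 and 3140 CPM in HEK293T AA against 634 and 1058 in HEK293T WT, and 316 and 341 in HCT116 AA against 286 and 293 in HCT116 WT. miR-30e-3p had 4504 and 6182 CPM in HEK293T AA against 1336 and 2226 in HEK293T WT, and 884 and 916 in HCT116 AA against 804 and 794 in HCT116 WT. In both, AA lay above WT without overlap in each line, with log2 fold changes of 1.70 and 1.58 in HEK293T and of 0.18 and 0.17 in HCT116. The differences were 1.51 ± 0.34 for miR-30a-3p (edgeR adjusted p = 0.025) and 1.41 ± 0.34 for miR-30e-3p (edgeR adjusted p = 0.035), which was not called with spike-in scaling (1.32). The 5p strands carry the seed GUAAACA of the main miR-30 guides. miR-30a-5p was at 1.06 ± 0.28 and narrowly missed the threshold (edgeR adjusted p = 0.052), passing without HEK293T AA replicate 2 (1.07), HEK293T WT replicate 1 (0.75) or 2 (1.12) and HCT116 WT replicate 1 (1.20) or 2 (0.96). miR-30a-5p was also called by DESeq2 (1.10), with limma-voom (1.06) and with all 12 libraries (1.15). In 8 of the 22 other settings tried it was not called. miR-30e-5p (0.48 ± 0.22) and miR-30c-5p (0.20 ± 0.21) did not pass. Of 11 tested miR-30 names 8 were above 0, and their median of 0.43 became 0.01 with library totals, where the median of all names was −0.42.

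miR-625-3p, from an intron of FUT8 on chromosome 14 (65471102 to 65471186), had 3317 and 4975 CPM in HEK293T AA against 1096 and 1705 in HEK293T WT, and 170 and 194 in HCT116 AA against 186 and 178 in HCT116 WT. AA was above WT in HEK293T, and the HCT116 groups overlapped. The difference was 1.56 ± 0.35 (edgeR adjusted p = 0.025), while the 5p strand of the hairpin was at 0.13 ± 0.24. miR-145-5p, a smooth muscle miRNA, had 23.0 and 19.7 CPM in HEK293T AA against 7.71 and 9.66 in HEK293T WT, and 883 and 810 in HCT116 AA against 969 and 968 in HCT116 WT. Its groups were apart in both lines, in opposite directions, and the difference was 1.505 ± 0.30 (edgeR adjusted p = 0.015). The call was lost without HEK293T AA replicate 1 (1.17), without HCT116 AA replicate 2 (1.38) and with spike-in scaling (1.51). Its neighbour miR-143-3p was at 0.50 ± 0.45. miR-3653-3p rests on few reads, with 62 and 13 in HEK293T AA against 26 and 50 in HEK293T WT, and 2 and 1 in HCT116 AA against 12 and 13 in HCT116 WT. The ratio of AA to WT in HCT116 was 0.135, with an exact 95% counting interval of 0.0260 to 0.442. The fitted difference was 3.42 ± 0.85 (edgeR adjusted p = 0.043), and leaving out HEK293T AA replicate 1 (2.60), HEK293T WT replicate 1 (3.12), HCT116 AA replicate 1 (4.0) or 2 (2.91) or HCT116 WT replicate 1 (3.75) ended the call.

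The strands of a hairpin can also be compared with each other. The ratio of 5p to 3p reads, which does not depend on scaling, was tested for 148 hairpins, and its response to AA differed between the lines for 1 (0.676%), miR-25. In simulated counts for 144 hairpins, 36 were given a difference of size 1 and 36 of size 2. There the arm test recovered 13.9% of those of size 1 and 77.8% of those of size 2. Most differences of size 1 could thus be missed, and hairpins that did not pass are not shown to be alike in the lines. The miR-25 hairpin lies at chr7:100093560-100093643 on the minus strand, here with both mature strands in capitals.
MIR25: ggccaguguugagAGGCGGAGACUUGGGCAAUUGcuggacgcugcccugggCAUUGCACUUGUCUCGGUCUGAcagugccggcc
There were 809 and 398 reads of miR-25-5p beside 90267 and 53500 of miR-25-3p in HEK293T AA, against 1460 and 2066 beside 111259 and 181819 in HEK293T WT. HCT116 AA had 363 and 366 beside 17405 and 19921, against 335 and 248 beside 32033 and 30209 in HCT116 WT. The log2 ratio of 5p to 3p was lower with AA in HEK293T (−6.80 and −7.07, against −6.25 and −6.46 with WT) and higher with AA in HCT116 (−5.58 and −5.76, against −6.58 and −6.93 with WT), without overlap in either line. The difference of −1.65 ± 0.27 (edgeR adjusted p = 0.0079) was no longer called without HEK293T AA replicate 2 (−1.52) or HEK293T WT replicate 1 (−1.55). Without HEK293T WT replicate 2 there were 2 hairpins called higher and 7 lower. The hairpins that came next did not pass. These were miR-625 (−1.44 ± 0.34) and miR-664a (−1.79 ± 0.44), both with an edgeR adjusted p of 0.077, miR-193b (−1.49 ± 0.40, edgeR adjusted p = 0.098) and miR-324, known for alternative cutting by DICER (1.15 ± 0.32, edgeR adjusted p = 0.098). The ratio of miR-625 was called with at least 50 reads per arm (−1.44) and with all 12 libraries (−1.44), and was −1.67 without HEK293T WT replicate 2.

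**Figure D3:**
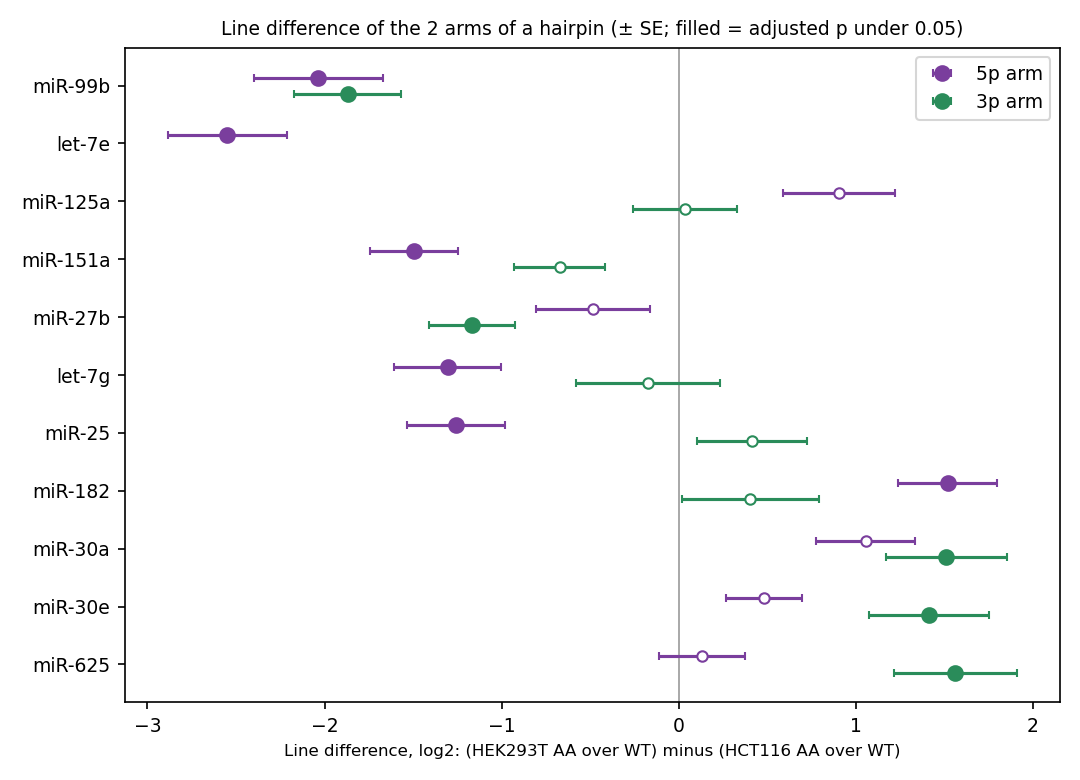
Line difference in the AA effect (log2, horizontal axis, with its SE as a bar) for the 5p and 3p strands of 11 hairpins. Filled points passed the test. Both strands of miR-99b lie near −2, whereas for let-7g, miR-25, miR-182 and miR-625 a strand with a called difference sits beside one within 0.42 of 0. When the ratio of the strands was itself tested, miR-25 passed. The ratios of let-7g (−1.14 ± 0.53), miR-182 (1.09 ± 0.48) and miR-625 (−1.44 ± 0.34) did not.

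The 6 miRNAs with the highest mean of the 2 lines' CPM did not pass. The ranking pools lines with different levels, and miR-21-5p, miR-222-3p and miR-31-5p were high mainly in HCT116. miR-21-5p was at −0.29 ± 0.22, miR-222-3p at −0.38 ± 0.24, miR-92a-3p at 0.52 ± 0.27, miR-16-5p at 0.28 ± 0.20, miR-10a-5p at 0.50 ± 0.24 and miR-31-5p at 0.33 ± 0.23, with edgeR adjusted p of 0.299 to 0.496. miR-10a-5p was called with all 12 libraries in the fit, miR-21-5p with library totals, and miR-222-3p with library totals and without HEK293T WT replicate 2. miR-451a, which Argonaute 2 cuts in place of DICER, had 20.5 and 25.2 CPM in HEK293T AA against 22.6 and 21.6 in HEK293T WT, and 95.2 and 78.5 in HCT116 AA against 84.1 and 78.1 in HCT116 WT. Its groups overlapped in both lines, and its difference was −0.08 ± 0.31 (edgeR adjusted p = 0.915). miR-331-3p, with a log2 fold change of −3.40 in HEK293T and −2.16 in HCT116, missed the threshold at −1.24 ± 0.33 (edgeR adjusted p = 0.0515), with values of −1.60 to −0.89 when 1 library was left out. It passed without HEK293T WT replicate 2 (−1.60), HCT116 AA replicate 2 (−1.45) or HCT116 WT replicate 2 (−1.57). With all 8 libraries it was also called with library totals (−1.67), upper-quartile factors (−1.26) and TMM within each line (−1.28), and by DESeq2 (−1.17). In 11 of the 22 other settings tried miR-331-3p was not called. The strands of miR-324 were at 0.02 ± 0.25 for 5p and −1.12 ± 0.31 for 3p (edgeR adjusted p = 0.0617), and the 3p strand passed in 4 of the 8 fits that left out a library and under 4 of the 5 other scalings, all but the spike-in one.

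The called members of other families are to be read beside the shares over all 514 tested names, 3.5% lower and 1.17% higher. Most of these lists are small, and none was tested against those shares. The miR-17-92 cluster with its paralogs had 2 of 20 tested names lower, miR-18b-5p and miR-25-5p, and a median of 0.10. The miR-10, miR-99, miR-100 and miR-125 family had 2 of 10 lower, both from miR-99b, while 8 of 10 were above 0, with a median of 0.41 that turned to −0.03 with library totals. miR-99a-5p, with the same seed as miR-99b-5p, was at 0.47 ± 0.31. The miR-29 list had 1 of 7 lower (median −0.37), the miR-196 and miR-615 list 1 of 6 lower (median −0.46) and the miR-183 cluster 1 of 6 higher (median 0.23). No tested name passed among the 10 of the miR-15 and miR-16 list, 8 of the miR-181 family, 15 of the miR-532 and miR-362 cluster, 15 of the miR-548 family and 5 mirtrons, with medians of 0.07, 0.12, 0.11, 0.46 and −0.25. In the miR-181 family, miR-181a-5p (0.92 ± 0.33) was called with DESeq2 size factors (0.93), by DESeq2 (0.93), with all 12 libraries (0.99) and without HCT116 WT replicate 2 (1.07). With library totals, where the median of all names was −0.42, the medians turned to −0.32 for the miR-17-92 list, −0.14 for the miR-183 cluster, −0.39 for the miR-15 and miR-16 list, −0.30 for the miR-532 and miR-362 cluster and −0.29 for miR-181 names, and that of the miR-548 family became 0.04. The median of the miR-15 and miR-16 list was also below 0 with TMM within each line (−0.01) and with spike-in scaling (−0.03). By strand, 2 of 221 5p names were higher and 9 lower, 4 of 206 3p names were higher and 7 lower, and 2 of 87 names without a strand suffix were lower, with medians of 0.02, 0.00 and −0.09. Among names with a sequence, the first base was U in 6 of 15 lower names (40%), 1 of 5 higher names (20%) and 172 of 447 tested names (38.5%). Counts this small do not set the called names apart. The median GC content of lower, higher and all tested names was 43.5%, 45.5% and 47.8%.

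Across all 514 names, effects of AA were spread more widely in HEK293T than in HCT116. Their SD was 0.83 in HEK293T and 0.53 in HCT116 on the log2 scale, and the median size was 0.42 in HEK293T and 0.21 in HCT116. Beyond 1 in size were 82 names in HEK293T, 27 above and 55 below, and 22 in HCT116, 8 above and 14 below. Replicates were also more spread in HEK293T. The SD of the log2 difference between the 2 replicates was 0.50 in HEK293T AA, 0.43 in HEK293T WT, 0.29 in HCT116 AA and 0.37 in HCT116 WT, and the median SE of an effect was 0.246 in HEK293T and 0.228 in HCT116. The part of that spread in the wider effects was not tested. Effects of the 2 lines, which share no library, correlated across names at a Pearson r of 0.53 and a Spearman rho of 0.44, and at a Pearson r of 0.73 over the 239 names with at least 50 CPM in each line, given as a description since names of 1 library are not independent. Of the 55 names below −1 in HEK293T 8 (14.5%) were below −1 in HCT116, and of the 14 below −1 in HCT116 the same 8 (57.1%) were below −1 in HEK293T.

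The total yield of miRNA relative to the added spike-in RNAs was also set side by side in the lines. This design allows no p under 0.05, whatever the values. HEK293T AA gave 58.8 and 44.3 miRNA reads for every spike-in read, averaging 51.6 ± 10.3 (SD, 2 libraries), against 82.6 and 80.9 in HEK293T WT (81.8 ± 1.21), and HCT116 AA gave 210 and 206 (208 ± 2.93) against 274 and 367 in HCT116 WT (320 ± 65.9). AA was below WT without overlap in both lines, at 62.4% of WT in HEK293T and 65.5% in HCT116 by the mean of logs. The difference was −0.07 on the log2 scale (two-sided exact permutation of the forms within each line, p = 0.778, where 36 arrangements allow no p below 0.0556). It was −0.28 without HCT116 WT replicate 2, 0.14 without HCT116 WT replicate 1 and 0.34 with a median of ratios in place of the sum of spike-in reads.

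The 30 spike-in RNAs, which were added to the samples and not made by the cells, were put through the same contrast. Scaled and tested among themselves by edgeR, 0 of 30 passed (0%), beside 24 of 514 miRNAs (4.67%). With only 30 spike-ins, these 2 shares cannot be told apart. An unadjusted p under 0.05 was reached by 5 of the 30, so p-values of that size also arose for RNAs not made by the cells. Around their median the spike-ins ran from −1.81 to 2.21, with a median size of 0.274 and 27 of 30 within 1. Over all 514 tested miRNAs the median size was 0.378. All 24 called miRNAs, picked by a test that favours large differences, were beyond 1 in size. But only 3, miR-2355-5p, miR-3653-3p and let-7e-5p, were beyond the most extreme spike-in. Tested by glmTreat against that spike-in value, 0 miRNAs passed, with 1 higher and 1 lower at an unadjusted p under 0.05. Without HCT116 WT replicate 2, 1 spike-in was called higher.

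**Figure D4:**
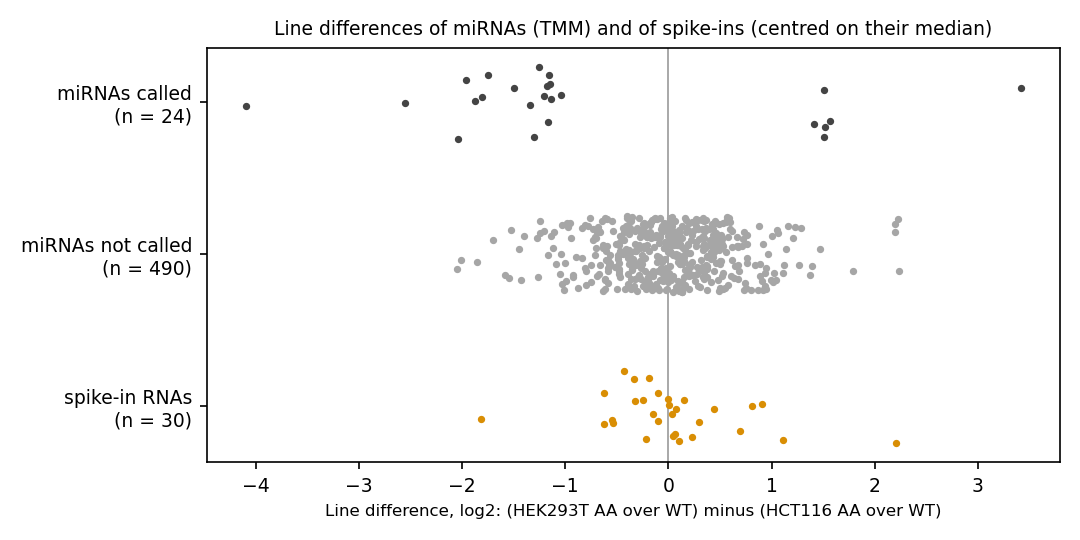
Line difference (log2, horizontal axis) of the 24 called miRNAs, the 490 other tested miRNAs and the 30 spike-ins, 1 point each, spread vertically only to separate the points. The spike-ins, centred on their median, lie from −1.81 to 2.21, and 27 of them within 1 of 0.

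Of the 24 names, 8 were called under 21 of the 22 other settings tried, all but the glmTreat test against the most extreme spike-in, under which 0 were called: let-7e-5p, both strands of miR-99b, miR-484, miR-151a-5p, miR-151b, miR-1277-3p and miR-182-5p. miR-2355-5p was called under 19 of the 20 settings that gave it an adjusted p, again all but that glmTreat test. In all 8 fits that left out 1 library 14 names were called, and all 24 kept their sign under each of these settings that tested them. With spike-in scaling 14 of the 24 were called, and tested by glmTreat against a 1.5-fold difference 9 were, namely those 8 and miR-2355-5p.

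**Figure D5:**
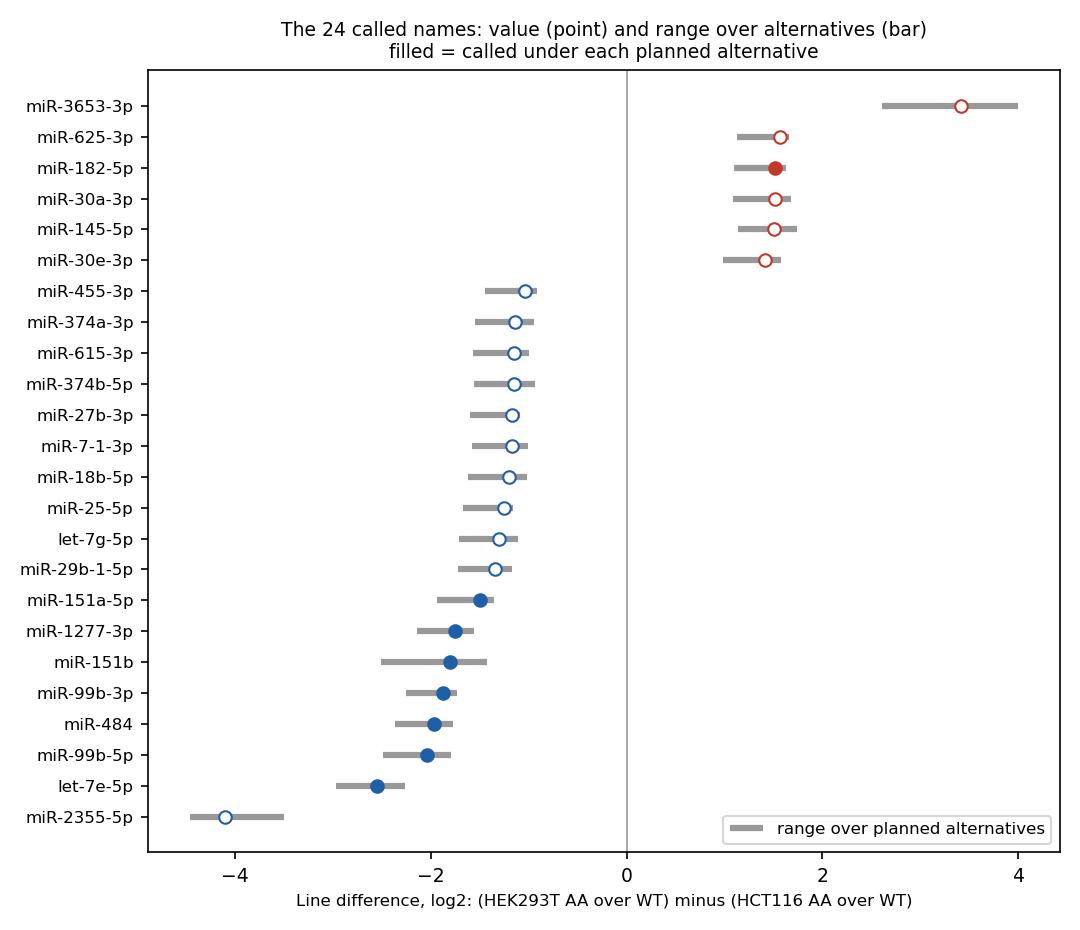
Line difference (log2) of the 24 called names, with the value as a point and the range over the 21 other settings as a bar. The glmTreat test against the most extreme spike-in, under which 0 names were called, is not among these 21. Filled points mark the 8 names called under each of the 21, and no bar crosses 0.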

How the data were processed

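Small RNA libraries of HEK293T and HCT116 cells, 2 per group, were compared between DICER AA and DICER WT. The authors deposited whole-number read counts per miRNA and per spike-in RNA. The submitters' processing notes name cutadapt, BWA and bedtools and the builds hg38 and mm10. The sources used here do not give their versions or roles, the miRNA annotation or the rule for reads that match several names. The labels make replicates separate samples without saying whether they were separate cultures, and the p-values therefore cover only the spread among these samples, which may be technical.

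Names listed for both lines were kept if they passed edgeR's filterByExpr (minimum count 10) in each line. An edgeR 4.0.16 quasi-likelihood model (R 4.3.3) of the 4 groups was fitted to the 8 libraries with TMM scaling, and the interaction contrast was tested, with Benjamini-Hochberg adjustment over 514 names and a threshold of 0.05. CPM are TMM-scaled, a log2 difference is HEK293T minus HCT116, and ± is the SE unless named SD. Arm use was tested in a model with a term for each library, over hairpins whose 2 arms each had 10 reads or more in 2 or more libraries of both lines. Intervals and floors cover counting error only. Depth ran from 1440770 to 4498886 miRNA reads. In 1 set of simulated counts for 503 names, 97 were given a difference of size 1 and 96 of size 2. There the miRNA test recovered 54.6% of differences of size 1 and 97.9% of size 2, with 3.92% of its calls false. Those counts were drawn from the fitted model, with 1 spread per name for all 4 groups, whereas replicate spread in the data differed by group. The 3.92% is therefore not an error rate for the calls in the data. Many more names were changed there than the 24 of 514 called in the data. More true changes make the adjusted threshold easier to pass, so recovery in the data may be lower. DESeq2 1.42.0 and limma 3.58.1 were alternatives, and 1 alternative, a test against the largest spike-in difference, was chosen after seeing the data. The members and lists were chosen with earlier results of these data known.

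Names were taken by rule: with at least 50 CPM in each line, up to 10 called names per direction, then the 6 most abundant, 7 singled out earlier, the most abundant of each list, and relatives of the called names. The other called names, 9 in all (miR-1277-3p, miR-145-5p, miR-2355-5p, miR-29b-1-5p, miR-3653-3p, miR-374a-3p, miR-374b-5p, miR-455-3p and miR-615-3p), were named after their values were seen. Hairpin positions are from RefSeq on GRCh38.p14, and the genes they lie in are from GENCODE v29. The dsRBD deletion libraries entered only the alternative with all 12 libraries.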

Additional observations from a re-analysis of the deposited data

Results flagged for a closer look

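Each result here is one where the effect of AA differed between HEK293T and HCT116 by the edgeR interaction test itself. Values are log2 differences, HEK293T minus HCT116. Higher differences were 3.42 for miR-3653-3p, 1.56 for miR-625-3p, 1.52 for miR-182-5p, 1.51 for miR-30a-3p, 1.505 for miR-145-5p and 1.41 for miR-30e-3p. The lower differences of clustered or related names were −2.55 for let-7e-5p, −2.04 for miR-99b-5p, −1.87 for miR-99b-3p, −1.31 for let-7g-5p, −1.80 for miR-151b and −1.50 for miR-151a-5p. The other lower differences were −4.10 for miR-2355-5p, −1.96 for miR-484, −1.75 for miR-1277-3p, −1.34 for miR-29b-1-5p, −1.26 for miR-25-5p, −1.20 for miR-18b-5p, −1.17 for miR-7-1-3p, −1.17 for miR-27b-3p, −1.15 for miR-374b-5p, −1.15 for miR-615-3p, −1.13 for miR-374a-3p and −1.04 for miR-455-3p. The ratio of 5p to 3p reads of miR-25 also differed, by −1.65. With 2 libraries per group no library could be tested for standing apart from its group.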

How the results depend on the processing

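All 24 calls kept their direction in each of the 21 alternatives that tested them. The 6 higher calls became 16 with DESeq2 size factors, 13 with upper-quartile factors, 10 with TMM within each line, 13 with no filter on low counts, 10 with a mean of at least 50 reads, 28 with all 12 libraries, 23 by DESeq2, 1 by glmTreat against a 1.5-fold difference and 0 by glmTreat against the largest spike-in difference, and 4 to 16 when 1 library was left out. The 18 lower calls became 73 with library totals, 31 with no filter, 8 and 0 by those glmTreat tests, and 14 to 42 when 1 library was left out. They were 23 with all 12 libraries and 24 by DESeq2, beside 28 and 23 higher ones. For arm use the 0 higher hairpins became 0 to 2 and the 1 lower hairpin 0 to 7 when 1 library was left out, and the lower count was 2 with at least 50 reads per arm and 2 with all 12 libraries. Among spike-ins, 0 to 1 was called higher when 1 library was left out. The difference in miRNA reads per spike-in read was −0.07, 0.34 with a median of ratios, and −0.28 to 0.14 when 1 library was left out. The causes were not tested. Spike-in scaling called 17 names, 14 of them among the 24. DESeq2 called 22 of the 24 and gave no adjusted p for the other two.

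Same-numbered AA and WT libraries deviated with correlations of −0.03 in HEK293T and −0.07 in HCT116, and same-numbered libraries of the 2 lines with 0.10 for AA and 0.14 for WT. The labels give the numbers no shared origin, so they were not treated as pairs. With the replicate block, 11 names were higher and 20 lower, 23 of the 24 among them. miR-615-3p was lost (−1.15), and miR-30a-5p (1.07) and miR-331-3p (−1.27) were gained. miR-3653-3p could not be tested without HCT116 WT replicate 2. Depth limits names of few reads, among them miR-2355-5p and miR-3653-3p.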
